A study of Homo sapiens with 8 samples.

Results

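The mitochondrial ribosomal protein genes of LX-2 cells were compared between cells with an inhibited and an active O-GlcNAc transferase (OGT). A gene belonged to this family when its symbol began with MRPL or MRPS followed by a number and its total reached 10 counts over the 8 libraries. All 78 symbols of that form passed, out of 16796 genes measured and 14895 genes that passed the same count minimum. Of the 78 genes, 51 encode proteins of the large subunit of the mitochondrial ribosome, 26 encode proteins of the small subunit and 1, MRPS36, carries the name although its protein is now placed in the 2-oxoglutarate dehydrogenase complex. The symbols MRPS18A and MRPS30 name proteins that sit in the large subunit and were counted there.

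LX-2 is an immortalized human line of activated hepatic stellate cells, the liver cells that turn into matrix-producing myofibroblasts (MF-HSCs). OGT modifies proteins of the nucleus, cytosol and mitochondria with the single sugar O-GlcNAc, and OSMI-1 is a chemical inhibitor of this enzyme. Cells in medium with 5% serum received no OSMI-1 (control, 4 libraries) or OSMI-1 at 50 µM (OGTi, 4 libraries) for 24 h. The libraries were named as biological replicates 1 to 4 of a single cell line, and treated and control libraries of the same number were paired.

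Mitochondrial ribosomes translate the few mRNAs of the mitochondrial genome, all of which encode subunits of the respiratory chain and of ATP synthase. Their RNA is made inside the organelle, whereas all their proteins are encoded in the nucleus, translated in the cytosol and imported. Part of these proteins descend from bacterial ribosomal proteins, and the others were added during the evolution of mitochondria. In many cell types their genes carry ETS-family (GABPA), NRF1 and YY1 binding sites close to the start site.

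The libraries held between 24166756 and 28201215 counts. The 78 genes together took 3212, 3170, 2854 and 3036 CPM (counts scaled to a common library total) in control replicates 1 to 4 and 3261, 3287, 3142 and 3149 in OGTi replicates 1 to 4. Control replicate 3 was the lowest of the 8 libraries on this measure. No gene of the mitochondrial genome was analysed here, so the ribosomal RNAs of the same particles were not measured. The stellate and fibroblast markers held 8327 to 9287 CPM in control and 6621 to 7872 in OGTi libraries, led by VIM and COL1A1, while DES and LRAT averaged 3.58 and 2.20 normalized counts in control cells. The hepatocyte markers summed to at most 3.04 CPM, and ALB, APOB, TTR, CYP3A4 and HNF4A were not analysed here. The endothelial markers summed to 2.84 to 3.72 CPM in control and 0.759 to 1.81 in OGTi libraries, and the epithelial markers to 25.9 to 41.8 and 37.8 to 50.8. Most of the epithelial sum was SOX9, with means of 834 normalized counts in control and 1045 in OGTi libraries, whereas KRT7 fell from 111 to 53.8. The macrophage markers summed to 93.7 to 148 and 219 to 372 CPM, nearly all of it CD68, a lysosomal gene, with PTPRC at 7.64 and 2.84 normalized counts. The part of these shifts in the results was not tested. In bulk RNA, fewer cells of a kind and less RNA per cell cannot be told apart.

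OGTi changed the mitochondrial ribosomal protein genes in both directions. A gene was called when its DESeq2 q-value (the Benjamini-Hochberg adjusted p over all genes tested) was 0.05 or lower. By this measure 17 of the 78 genes rose and 20 fell, a called share of 47.4% that lay close to the 46.6% of all 14028 genes with a q-value. The shares by direction were also near those of all genes, with 21.8% of the 78 genes called higher against 22.7% of all genes and 25.6% called lower against 24.0%. Their median log2 fold change of OGTi over control was 0.024, against 0.005 for all genes. The normalized counts of control and OGTi libraries did not overlap for 31 of the 78 genes (39.7%), against 40.0% of all genes with a q-value. These shares lie near the background and are no result about the family, so what follows concerns single members.

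The changes of the called members were small in most cases. On the log2 scale the median of the 17 rises was 0.35 and the median of the 20 falls was -0.46. Past 2-fold there were only the falls of MRPL54, MRPS28 and MRPL27. These 3 genes made up 3.85% of the family, against 8.55% of all genes with a q-value called past 2-fold. Taken without its sign, the log2 change of a called member had a median of 0.38, against 0.52 over all called genes. Of the 37 called members, 34 moved the same way in all 4 pairs, as did 6298 of the 6541 genes called over all genes. The 41 members that were not called lay between -0.30 and 0.25 on the log2 scale, with a median standard error over the 78 genes of 0.11.

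**Figure D1:**
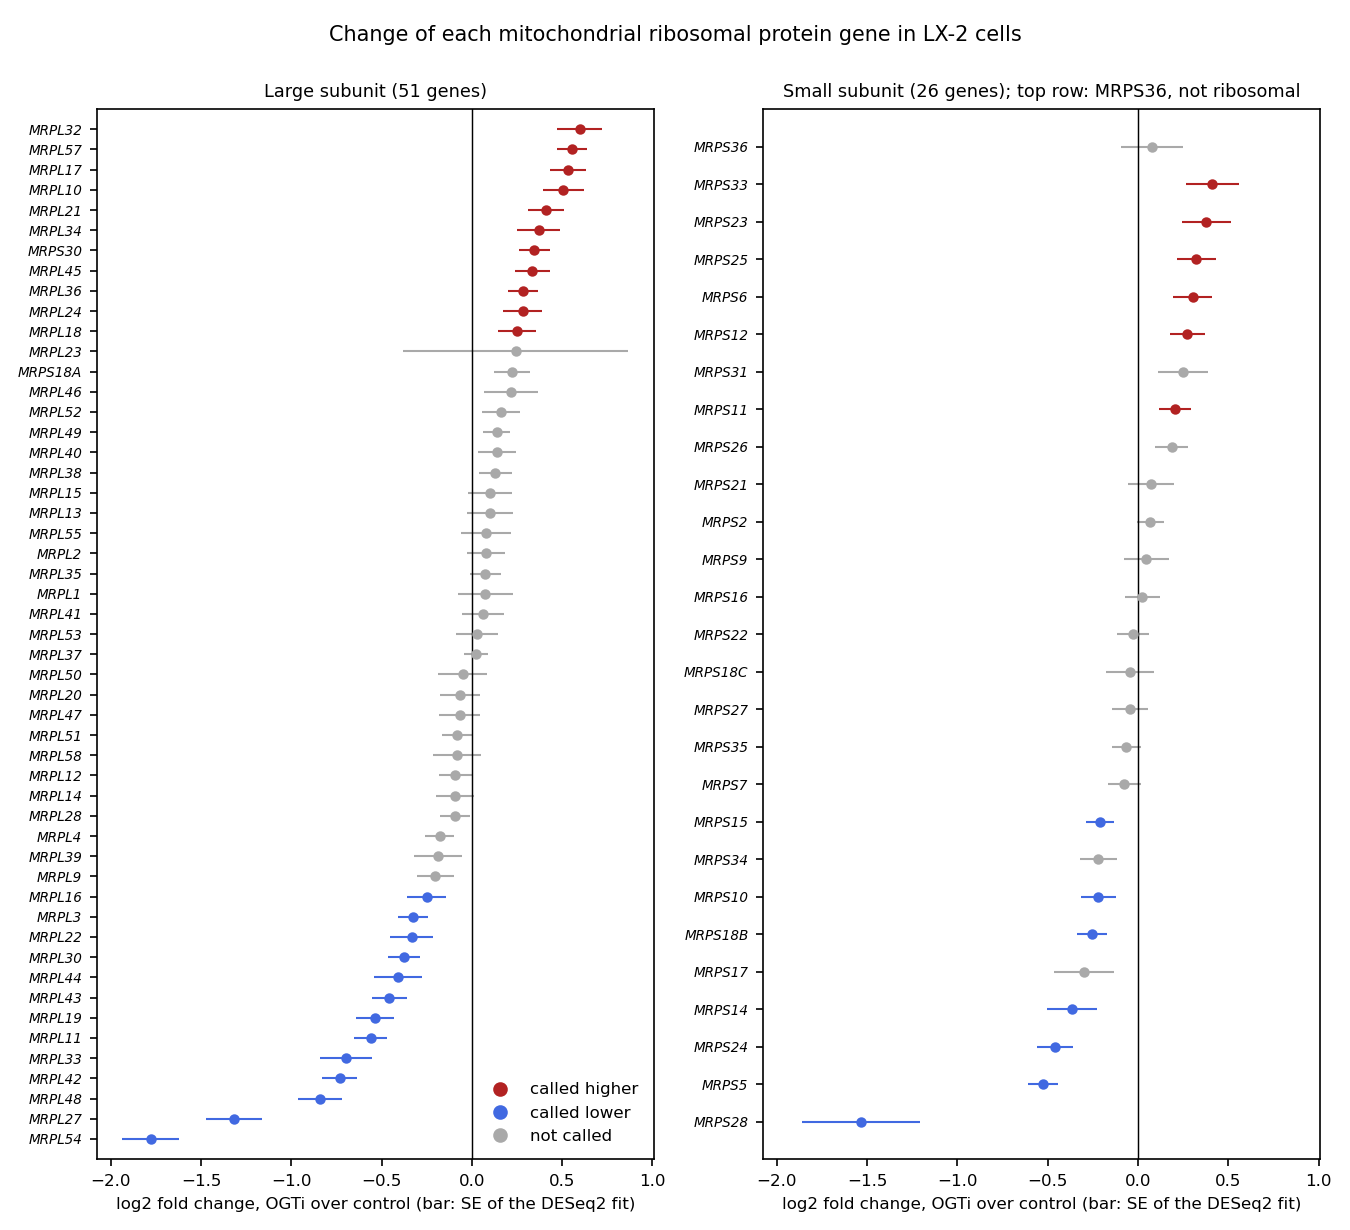
Log2 fold change of OGTi over control for the 51 large-subunit genes (left), the 26 small-subunit genes and MRPS36 (right, top row); points are DESeq2 estimates and bars their standard errors, red for genes called higher, blue for genes called lower and grey for genes not called. Most members lie close to 0, and MRPL54 (-1.78), MRPS28 (-1.53) and MRPL27 (-1.32) stand apart on the low side.

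The counts by direction depended on the scaling and on the number of pairs. When total counts replaced the medians of ratios as size factors, 23 members were called higher and 14 lower, and the share of higher calls over all genes went from 48.6% to 61.2%. Without the replicate block 34 members were called, 15 higher and 19 lower. Leaving out replicate 2 lowered the number called from 37 to 23, and leaving out the other replicates gave 30, 31 and 26. Across these 12 alternatives 21 of the 37 called members, 8 higher and 13 lower, were called every time, and none of the 37 changed sign in any of them.

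The 6 largest falls among members that averaged 100 normalized counts or more were all in the large subunit. MRPL54, a protein that bacterial ribosomes lack, had 439, 516, 425 and 426 normalized counts in control replicates 1 to 4 and 117, 179, 134 and 104 in OGTi replicates 1 to 4. Every OGTi library was far below every control library, and the mean went from 452 ± 43.2 to 133 ± 32.6 (SD, n = 4 libraries per group). Its log2 fold change was -1.78 ± 0.16 (SE, q = 5.24e-28, DESeq2), a 3.43-fold fall, and 181 of the 3360 genes called lower fell further. The gene lies on chromosome 19 (hg38, 3762682 to 3768575, plus strand) and has 3 exons in its main transcript.

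MRPL27 encodes the counterpart of bacterial L27, a protein that reaches towards the peptidyl transferase centre. Its normalized counts were 450, 387, 382 and 387 in the control libraries and 205, 169, 132 and 144 in the OGTi libraries. The groups were far apart, and the log2 fold change was -1.32 ± 0.15 (SE, q = 1.77e-16, DESeq2). The gene lies on the minus strand of chromosome 17 (hg38, 50367857 to 50373207). MRPL48, a protein of the central protuberance, had 699, 704, 711 and 648 normalized counts in control and 334, 454, 380 and 384 in OGTi libraries. The lowest control library held more than the highest OGTi library, and the log2 fold change was -0.84 ± 0.12 (q = 4.88e-11, DESeq2).

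MRPL42, a mitochondria-specific protein, had 974, 1016, 1154 and 1172 normalized counts in control and 606, 561, 687 and 751 in OGTi libraries. The groups did not overlap, and the fall was -0.73 ± 0.10 on the log2 scale (q = 1.08e-12, DESeq2). MRPL33, the counterpart of bacterial L33, went from 354, 443, 385 and 368 normalized counts to 197, 298, 264 and 206. Each OGTi library was below each control library here as well, with a log2 fold change of -0.70 ± 0.14 (q = 7.00e-06, DESeq2). Its annotated span overlaps that of BABAM2 on the same strand, and how the authors' counting divided reads between them was not tested. MRPL11, at the base of the stalk that recruits translation factors, had 1864, 1693, 1750 and 1641 normalized counts in control and 1187, 1347, 1087 and 1101 in OGTi libraries. All control libraries were above all OGTi libraries, and the log2 fold change was -0.56 ± 0.09 (q = 8.66e-09, DESeq2).

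The 6 largest rises lay between 0.41 and 0.60 on the log2 scale, whereas these falls lay between -1.78 and -0.56. MRPL32, which the m-AAA protease cuts to its mature form before it enters the ribosome, had 401, 470, 340 and 392 normalized counts in control and 652, 592, 571 and 602 in OGTi libraries. The groups did not overlap, and the rise was 0.60 ± 0.12 on the log2 scale (SE, q = 7.10e-06, DESeq2), which 1292 of the 3181 genes called higher exceeded. MRPL57, a mitochondria-specific protein, had 1050, 1137, 1053 and 1145 normalized counts in control and 1556, 1731, 1568 and 1583 in OGTi libraries. OGTi replicate 2 was the highest library and the groups did not overlap, with a log2 fold change of 0.55 ± 0.09 (q = 6.76e-10, DESeq2).

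MRPL17, near the exit of the peptide tunnel, went from 1196, 947, 1017 and 989 normalized counts to 1556, 1671, 1475 and 1306. No OGTi library was as low as a control library, and the log2 fold change was 0.53 ± 0.10 (q = 4.69e-07, DESeq2). MRPL10, which anchors the stalk, had 1270, 1206, 968 and 1307 normalized counts in control and 1550, 1678, 1914 and 1596 in OGTi libraries. Control replicate 3 was the lowest and OGTi replicate 3 the highest library, so that pair differed most, and the log2 fold change was 0.51 ± 0.11 (q = 3.91e-05, DESeq2).

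MRPL21, the counterpart of bacterial L21, rose from 849, 769, 709 and 794 to 1046, 1182, 932 and 990 normalized counts. The groups did not overlap and the log2 fold change was 0.41 ± 0.10 (q = 0.000197, DESeq2). MRPS33, a mitochondria-specific protein of the small subunit, had 315, 222, 232 and 233 normalized counts in control and 380, 324, 286 and 335 in OGTi libraries. Control replicate 1 lay above OGTi replicate 3, so the groups overlapped although every pair rose, and the log2 fold change was 0.41 ± 0.15 (q = 0.0131, DESeq2). That call was lost without replicate 2 (0.37, q = 0.109) and without replicate 4 (0.37, q = 0.110).

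**Figure D2:**
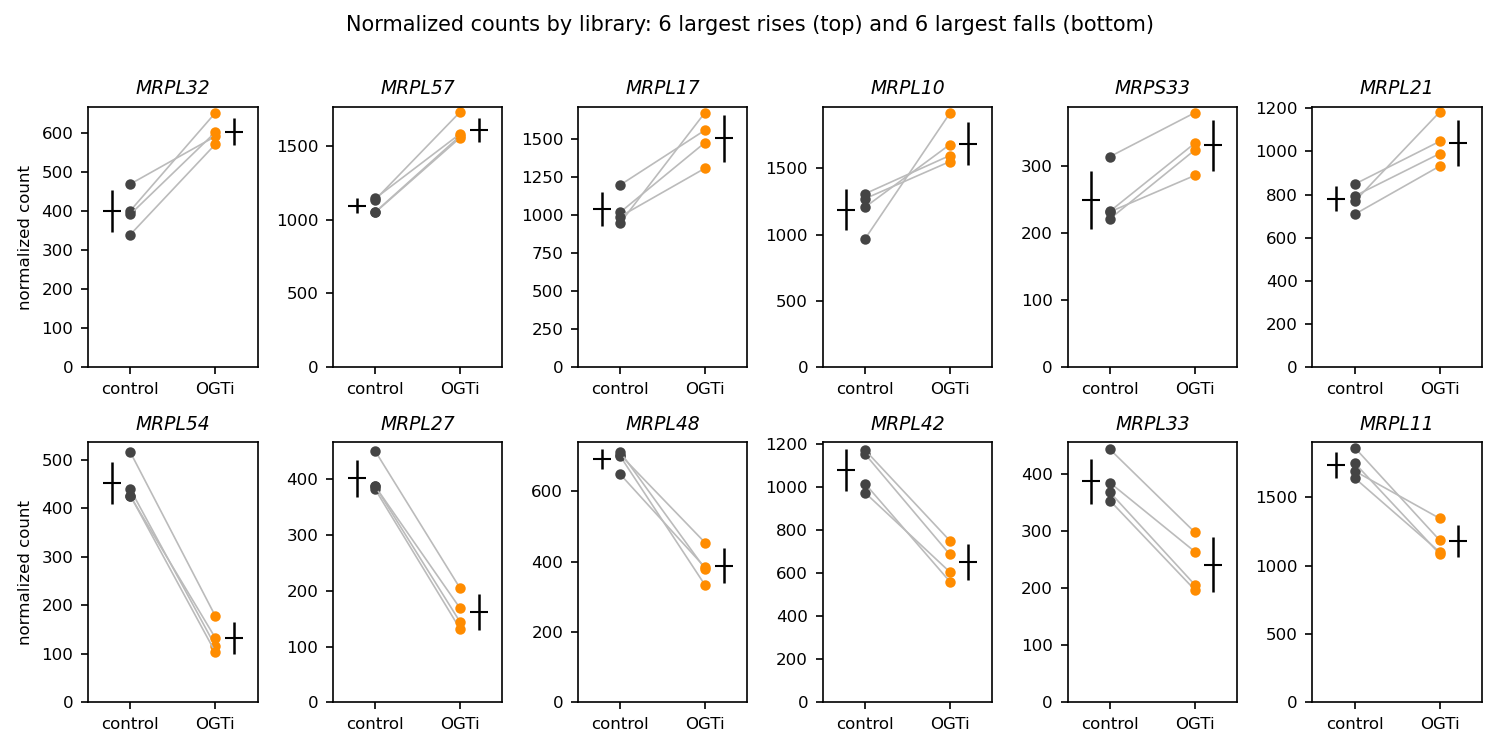
Normalized counts (y axes, each from 0) of the 6 largest rises (top row) and 6 largest falls (bottom row) in the 4 control (dark) and 4 OGTi (orange) libraries; grey lines join libraries of the same replicate and black marks give the mean and SD. All 4 lines go up in each upper panel and down in each lower panel, and only MRPS33 has groups that overlap.

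The large subunit held 11 rises and 13 falls among its 51 genes and a median log2 fold change of 0.028. The called share of 47.1% lay near the 46.6% of all genes, and the called genes of each region below moved in both directions. In the stalk, the part of the subunit that receives elongation factors, MRPL10 rose and MRPL11 fell, as given above. MRPL12, the stalk protein that contacts the factors and also binds the mitochondrial RNA polymerase, had 1685, 1698, 1607 and 1609 normalized counts in control and 1752, 1706, 1508 and 1268 in OGTi libraries. OGTi replicate 4 was the lowest and OGTi replicate 1 the highest library, and the log2 fold change of -0.09 ± 0.09 was not called (q = 0.437, DESeq2).

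The central protuberance, which lies at the top of the large subunit and touches the small one, was represented by 7 genes, with MRPL27 counted among them. Of these 7 genes 3 were called (42.9%, against the 46.6% of all genes). Only MRPL18 rose (0.25 ± 0.11, q = 0.0405, DESeq2), while MRPL27 and MRPL48 fell by 1.32 and 0.84 on the log2 scale. The call of MRPL18 was lost without replicate 2 (0.21, q = 0.221), without replicate 3 (0.20, q = 0.228), without replicate 4 (0.24, q = 0.155) and in edgeR without the block (0.25, q = 0.0536). MRPL38, MRPL40, MRPL46 and MRPL55 had log2 fold changes between 0.08 and 0.22 and were not called.

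On the side where the nascent chain leaves the ribosome, 4 of 8 genes rose and 2 fell, so that 6 of 8 were called, against 46.6% of all genes. The count of 6 was 4 without replicate 1, 4 without replicate 2 and 5 without replicate 3 or replicate 4. MRPL45, which holds the ribosome against the inner membrane, had 804, 833, 852 and 767 normalized counts in control and 1104, 1082, 1008 and 920 in OGTi libraries. All OGTi libraries were above all control libraries, with a log2 fold change of 0.34 ± 0.10 (q = 0.00170, DESeq2). MRPS30, placed beside it, went from 1293, 1237, 1303 and 1381 to 1703, 1443, 1653 and 1847 normalized counts. The groups did not overlap and the log2 fold change was 0.35 ± 0.08 (q = 0.000181, DESeq2). MRPL17 and MRPL24 (0.28 ± 0.11, q = 0.020, DESeq2) also rose. The call of MRPL24 was lost without replicate 1 (0.27, q = 0.0782), without replicate 2 (0.23, q = 0.172) and without replicate 4 (0.30, q = 0.0685).

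MRPL44, whose protein has an RNase III-like fold and which is mutated in an infantile cardiomyopathy, moved the other way. Its normalized counts were 444, 447, 390 and 339 in control and 326, 346, 270 and 276 in OGTi libraries, so that OGTi replicate 2 lay above control replicate 4. The log2 fold change was -0.41 ± 0.13 (q = 0.00597, DESeq2), and the call was lost without replicate 3 (-0.38, q = 0.0562). MRPL22 fell by 0.33 on the log2 scale (q = 0.0140, DESeq2), a call that was lost without replicate 1 (-0.30, q = 0.0965), without replicate 2 (-0.27, q = 0.146) and with total counts as size factors (-0.24, q = 0.0989). MRPL47 was not called (-0.07) and MRPL23 is described with the low members below.

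MRPL3, the counterpart of a bacterial protein next to the peptidyl transferase centre and mutated in a mitochondrial cardiomyopathy, had 2073, 1883, 2121 and 1909 normalized counts in control and 1630, 1594, 1538 and 1603 in OGTi libraries. The groups were separate, and the log2 fold change was -0.33 ± 0.08 (q = 0.000307, DESeq2). MRPL41, a mitochondria-specific protein, had 743, 568, 399 and 456 normalized counts in control and 710, 651, 444 and 444 in OGTi libraries. Its libraries differed more between replicate numbers than between treatments, and its change of 0.06 ± 0.12 on the log2 scale was not called (q = 0.706, DESeq2).

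The small subunit held 6 rises and 7 falls among its 26 genes (50.0% called, against the 46.6% of all genes), with a median log2 fold change of -0.035. The count of 13 called genes became 3 without replicate 2, 5 without replicate 4, 8 without replicate 1 and 9 without replicate 3. The fall of MRPS28, the counterpart of a part of bacterial S1, was the steepest of the subunit. It had 96.4, 63.9, 74.7 and 67.6 normalized counts in control and 32.0, 20.1, 29.8 and 23.0 in OGTi libraries. The groups were separate at this low level, and the log2 fold change was -1.53 ± 0.33 (q = 1.43e-05, DESeq2). MRPS28 was left out of the 6 largest falls because its mean was under 100 normalized counts. Its annotated span overlaps that of another annotated protein-coding gene on the same strand, and how the authors' counting treated reads there was not tested.

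MRPS5, which in bacteria takes part in decoding accuracy, had 1874, 1829, 1771 and 1712 normalized counts in control and 1329, 1302, 1211 and 1153 in OGTi libraries. Its groups were far apart, and the log2 fold change was -0.53 ± 0.08 (q = 1.05e-09, DESeq2). MRPS12, the other decoding protein named, moved up from 834, 759, 723 and 795 to 981, 924, 929 and 919 normalized counts. All OGTi libraries lay above all control libraries, with a log2 fold change of 0.27 ± 0.10 (q = 0.0127, DESeq2). With 3 pairs its q-value was 0.0792 without replicate 2, 0.103 without replicate 3 and 0.0551 without replicate 4, so the call needed all of these pairs. MRPS5 was chosen after its values were seen.

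MRPS24 fell by 0.46 on the log2 scale (SE 0.10, q = 2.39e-05, DESeq2) and MRPS6 rose by 0.30 (SE 0.11, q = 0.0122, DESeq2). The call of MRPS6 was unstable, and for both genes the division of reads with an overlapping gene was not tested. The call of MRPS6 was lost without replicate 2 (0.24, q = 0.152), without replicate 3 (0.31, q = 0.0517) and without replicate 4 (0.29, q = 0.0851), and without the block in DESeq2 (0.30, q = 0.0637) and in edgeR (0.30, q = 0.0726), while MRPS24 was called in all 12 alternatives. MRPS24 shares its sequence with the readthrough gene URGCP-MRPS24, and the span of MRPS6 overlaps that of SLC5A3 on the same strand. The spans of MRPS17, MRPL28 and MRPL53 likewise overlap those of other measured genes. Those of MRPL2, MRPL12, MRPL30, MRPL38, MRPL46 and MRPS5 overlap protein-coding genes on the same strand that were not found among the measured genes. How reads were divided there was not tested either. MRPS24 and MRPS6 were chosen after their values were seen.

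MRPS16, MRPS22 and MRPS34, which are mutated in inherited disorders of mitochondrial translation, were not called. The normalized counts of MRPS16 were 1216, 1045, 1103 and 1174 in control and 1045, 1166, 1205 and 1198 in OGTi libraries, with a log2 fold change of 0.02 ± 0.10 (q = 0.873, DESeq2). For MRPS22 they were 1062, 1171, 1185 and 1142 against 1017, 1136, 1137 and 1193, with a log2 fold change of -0.03 ± 0.09 (q = 0.848, DESeq2). Control and OGTi libraries of both genes were interleaved. MRPS34 had 1215, 1290, 946 and 1110 normalized counts in control and 924, 1137, 975 and 876 in OGTi libraries. It was lower under OGTi in 3 of 4 pairs, and its log2 fold change of -0.22 ± 0.10 missed the threshold (q = 0.0645, DESeq2), whereas without replicate 3, the pair that went the other way, it was -0.31 (q = 0.0219).

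MRPS18A, MRPS18B and MRPS18C are related to a single bacterial protein, S18, and each occupies its own place in the ribosome. MRPS18A had 1179, 1380, 1045 and 1192 normalized counts in control and 1465, 1374, 1433 and 1302 in OGTi libraries. It was higher in 3 of 4 pairs and narrowly missed the threshold at 0.22 ± 0.10 on the log2 scale (q = 0.0521, DESeq2), which it passed without replicate 2 (0.30, q = 0.0341). MRPS18B had 1757, 1737, 1780 and 1733 normalized counts in control and 1526, 1308, 1614 and 1439 in OGTi libraries, and its groups were separate. It fell by 0.26 on the log2 scale (SE 0.09, q = 0.00772, DESeq2), a call that was lost without replicate 2 (-0.20, q = 0.122), without replicate 4 (-0.25, q = 0.0622) and with total counts as size factors (-0.16, q = 0.116). MRPS18C had 468, 509, 453 and 391 normalized counts against 428, 449, 401 and 484, with a log2 fold change of -0.05 ± 0.13 (q = 0.811, DESeq2). The 3 relatives thus had a value above 0, a called fall and a value near 0, and the differences between them were not tested.

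MRPS36, whose protein is not ribosomal, had 269, 194, 176 and 211 normalized counts in control and 225, 235, 187 and 243 in OGTi libraries. The groups overlapped and its log2 fold change of 0.08 ± 0.17 was not called (q = 0.752, DESeq2).

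Genes with a bacterial counterpart and mitochondria-specific genes both moved in both directions. Of the 46 ribosomal protein genes with a bacterial counterpart, 11 rose and 14 fell, with a median log2 fold change of -0.056 (54.3% called, against the 46.6% of all genes). Without replicate 2, 14 of these 46 genes were called, 5 higher and 9 lower. Of the 31 mitochondria-specific genes, 6 rose and 6 fell, with a median of 0.028 (38.7% called), and 8 were called without replicate 4. With total counts as size factors the order of the shares turned, with 43.5% of the first and 54.8% of the second group called. The difference between these shares was not tested.

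Levels were compared between genes as CPM per kilobase of the median protein-coding transcript. In control cells they ran from 0.870 to 199 with a median of 29.0. MRPL49 (199 ± 18.3, SD, n = 4 control libraries), MRPL37 (158 ± 9.0) and MRPL4 (140 ± 15.6) were the highest. When the length of the main transcript was used instead, MRPL37 and MRPL4 ranked 1 and 2, and MRPL49 ranked 10, so the place of MRPL49 depended on the length chosen. None of these genes was called in the comparison with OGTi, at log2 fold changes of 0.14 ± 0.08 (q = 0.120, DESeq2) for MRPL49, 0.02 ± 0.07 (q = 0.801) for MRPL37 and -0.18 ± 0.08 (q = 0.0631) for MRPL4. MRPL49 was called with total counts as size factors (0.23, q = 0.00646), and MRPL4 was called lower after removal of the trend on GC content (-0.20, q = 0.0224), without replicate 1 (-0.22, q = 0.0395) and without replicate 3 (-0.25, q = 0.0297).

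The lowest members per kilobase were MRPL23, MRPL50 and MRPS28, at 0.870 ± 0.445, 4.35 ± 0.267 and 5.38 ± 1.12 CPM per kilobase. With the length of the main transcript MRPL23 was still the lowest of the 78 genes, whereas MRPL50 ranked 72 and MRPS28 ranked 74. MRPL23, a protein at the mouth of the peptide tunnel, had 18.5, 23.5, 11.5 and 6.24 normalized counts in control and 20.1, 13.1, 8.65 and 31.1 in OGTi libraries. At this depth no difference was detectable, with a log2 fold change of 0.24 ± 0.62 (q = 0.785, DESeq2) that was -0.37 without replicate 4. Reads that it may share with a near-identical copy were not tested. MRPL50 had 371, 394, 376 and 429 normalized counts against 349, 314, 412 and 449, groups that overlapped, and it was not called (-0.05 ± 0.14, q = 0.789, DESeq2).

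The summed mRNA of the family differed little between the groups. The large-subunit genes summed to 2101, 2065, 1853 and 1982 CPM in control replicates 1 to 4 and to 2166, 2160, 2065 and 2060 in OGTi replicates 1 to 4. The small-subunit genes summed to 1101, 1098, 995 and 1047 CPM in control and to 1086, 1118, 1070 and 1079 in OGTi libraries. On this scale of total counts, the large subunit was higher under OGTi in all 4 pairs and the small subunit in 3 of 4. As sums of normalized counts the large subunit was 55414, 54705, 51461 and 54563 in control and 54719, 55386, 52883 and 51648 in OGTi libraries, higher in 2 pairs and lower in 2. The ratio of large-subunit to small-subunit counts, which does not depend on the scaling, was 1.908, 1.881, 1.862 and 1.893 in control and 1.995, 1.931, 1.930 and 1.909 in OGTi libraries. These ranges touched without overlapping, and the ratio is a description dominated by the most abundant mRNAs, such as MRPL37 and MRPL4.

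**Figure D3:**
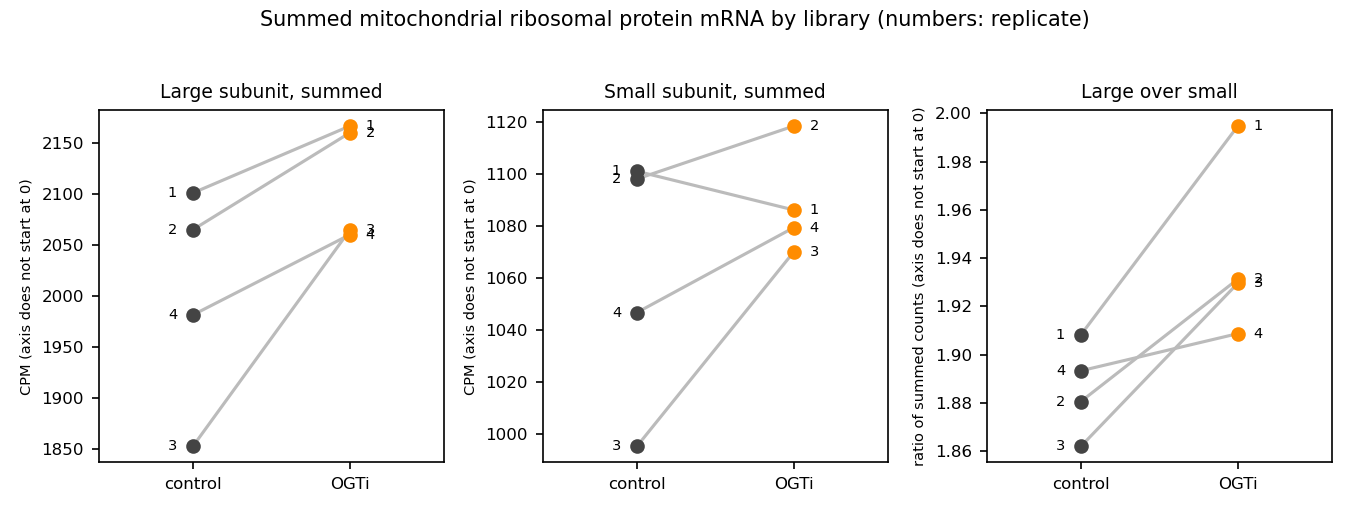
Summed CPM of the 51 large-subunit genes (left) and 26 small-subunit genes (middle) and the ratio of the sums (right) in each control (dark) and OGTi (orange) library; lines join libraries of the same replicate, the numbers are replicate numbers, and the y axes do not start at 0. Control replicate 3 is lowest in all 3 panels, and the ratios run from 1.862 to 1.908 in control and from 1.909 to 1.995 in OGTi libraries.

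Among 5 ribosomal proteins of mitochondria that carry other names, 1 rose and 1 fell (40.0% called, against the 46.6% of all genes), and OXA1L, a membrane protein that binds the ribosome, was listed with them. DAP3, a GTP-binding protein of the small subunit, had 1147, 1054, 1085 and 1170 normalized counts in control and 1575, 1495, 1499 and 1548 in OGTi libraries. The groups were separate, with a log2 fold change of 0.46 ± 0.08 (q = 4.07e-07, DESeq2). OXA1L, the insertase that takes nascent chains from the ribosome into the inner membrane, rose from 3766, 3996, 3762 and 4018 to 4811, 4886, 4878 and 4576 normalized counts (0.30 ± 0.07, q = 8.55e-05, DESeq2), again without overlap. GADD45GIP1, a large-subunit protein, fell by 0.31 on the log2 scale (SE 0.09, q = 0.00297, DESeq2), from 1333, 1558, 1176 and 1184 to 1223, 1187, 947 and 898 normalized counts, with overlapping groups. That call was lost without replicate 2 (q = 0.0564) and without replicate 4 (q = 0.0525).

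Among the factors that assemble the mitochondrial ribosome, 3 of 26 genes rose and 2 fell (19.2% called, against the 46.6% of all genes). MPV17L2, an inner membrane protein needed for assembly, had 1062, 1112, 1024 and 1185 normalized counts in control and 1759, 1972, 1879 and 1856 in OGTi libraries. The groups were far apart, with a log2 fold change of 0.77 ± 0.09 (q = 7.53e-18, DESeq2). TFB1M, the methyltransferase that modifies the small ribosomal RNA, rose from 224, 178, 163 and 209 to 355, 326, 357 and 379 normalized counts (0.88 ± 0.15, q = 9.39e-08, DESeq2), also without overlap. NOA1, a GTPase, rose by 0.29 ± 0.09 on the log2 scale (q = 0.00465, DESeq2), but not without replicate 4 (q = 0.0583). The count of 5 called genes was 3 without replicate 2, 3 without replicate 3 and 2 without replicate 4.

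Among translation factors of mitochondria 6 of 20 genes rose and 2 fell (40.0% called, against the 46.6% of all genes). RMND1, a protein required for mitochondrial translation, had 357, 296, 319 and 301 normalized counts in control and 563, 608, 550 and 565 in OGTi libraries. The groups were separate, with a log2 fold change of 0.85 ± 0.13 (q = 2.92e-10, DESeq2). MTRF1L, a release factor, rose by 0.48 ± 0.08 (q = 6.23e-08, DESeq2), and MTIF2, the initiation factor, fell by 0.45 (SE 0.12, q = 0.000571, DESeq2), from 674, 588, 590 and 570 to 470, 413, 414 and 483 normalized counts. The elongation factors TUFM and GFM1, chosen after their values were seen, had log2 fold changes of 0.00 and -0.02 and were not called. Of the 8 called genes 5 were left without replicate 1 and 4 without replicate 2, as counts.

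Of 15 genes of mitochondrial transcription and RNA processing 3 fell and 0 rose by DESeq2 (20.0% called, against the 46.6% of all genes). There were 0 rises also at an unadjusted DESeq2 p under 0.05, while edgeR called 1 rise. HSD17B10, a subunit of mitochondrial RNase P, fell by 0.31 on the log2 scale (SE 0.09, q = 0.00265, DESeq2), REXO2, an exoribonuclease, by 0.29 (SE 0.09, q = 0.00291) and MTPAP, the poly(A) polymerase, by 0.36 (SE 0.15, q = 0.0388). Each of these calls was lost with fewer pairs, as HSD17B10 was not called without replicate 4 (q = 0.0723), REXO2 not without replicate 3 (q = 0.0519) and MTPAP not when any replicate was left out (q from 0.0632 to 0.162). The count of 3 was 1 without replicate 3 and 1 without replicate 4.

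Of 12 nuclear regulators of mitochondrial genes, 1 rose and 5 fell (50.0% called, against the 46.6% of all genes), with a median of -0.21 on the log2 scale. Over all genes 22.7% were called higher and 24.0% lower, and the difference from this list was not tested. HCFC1, a co-regulator that OGT itself modifies and cleaves, had 10676, 12750, 13526 and 12510 normalized counts in control and 7739, 6169, 6921 and 6558 in OGTi libraries. The groups were far apart, with a log2 fold change of -0.85 ± 0.09 (q = 8.94e-20, DESeq2). TFEB, a regulator of lysosome genes, fell from 180, 128, 159 and 197 to 73.1, 61.3, 74.0 and 61.1 normalized counts (-1.29 ± 0.23, q = 9.84e-08, DESeq2), without overlap. ESRRA, a nuclear receptor that drives genes of oxidative metabolism, rose by 0.40 ± 0.12 (q = 0.00166, DESeq2). GABPA (-0.16 ± 0.12, q = 0.263) and NRF1 (-0.24 ± 0.12, q = 0.0806) were not called, and YY1 was called lower (-0.22 ± 0.09, q = 0.0274, DESeq2); these 3 were chosen because their motifs were searched below. The count of 6 called genes was 3 without replicate 2, 3 without replicate 4 and 3 with total counts as size factors.

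Of 13 chaperones and proteases of the mitochondrial matrix, inner membrane and intermembrane space, 7 rose and 1 fell (61.5% called, against the 46.6% of all genes). Their median was 0.21 on the log2 scale. Against the 22.7% of all genes called higher and the 24.0% called lower, this list was not tested. HSPD1, the mitochondrial chaperonin, had 7600, 7905, 8880 and 7837 normalized counts in control and 11760, 12018, 10269 and 10541 in OGTi libraries. The groups were separate, with a log2 fold change of 0.47 ± 0.08 (q = 3.96e-08, DESeq2). HTRA2, a protease of the intermembrane space, went from 672, 559, 436 and 476 to 981, 770, 804 and 775 normalized counts (0.65 ± 0.11, q = 6.94e-08, DESeq2), and TRAP1, a matrix chaperone, rose by 0.33 ± 0.08 (q = 0.000115, DESeq2). AFG3L2 (0.21 ± 0.08, q = 0.0147) and SPG7 (0.28 ± 0.09, q = 0.00752, DESeq2), the subunits of the m-AAA protease that matures MRPL32, were called higher and were chosen after their values were seen. The count of 8 called genes was 4 without replicate 2 and 5 without replicate 3.

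**Figure D4:**
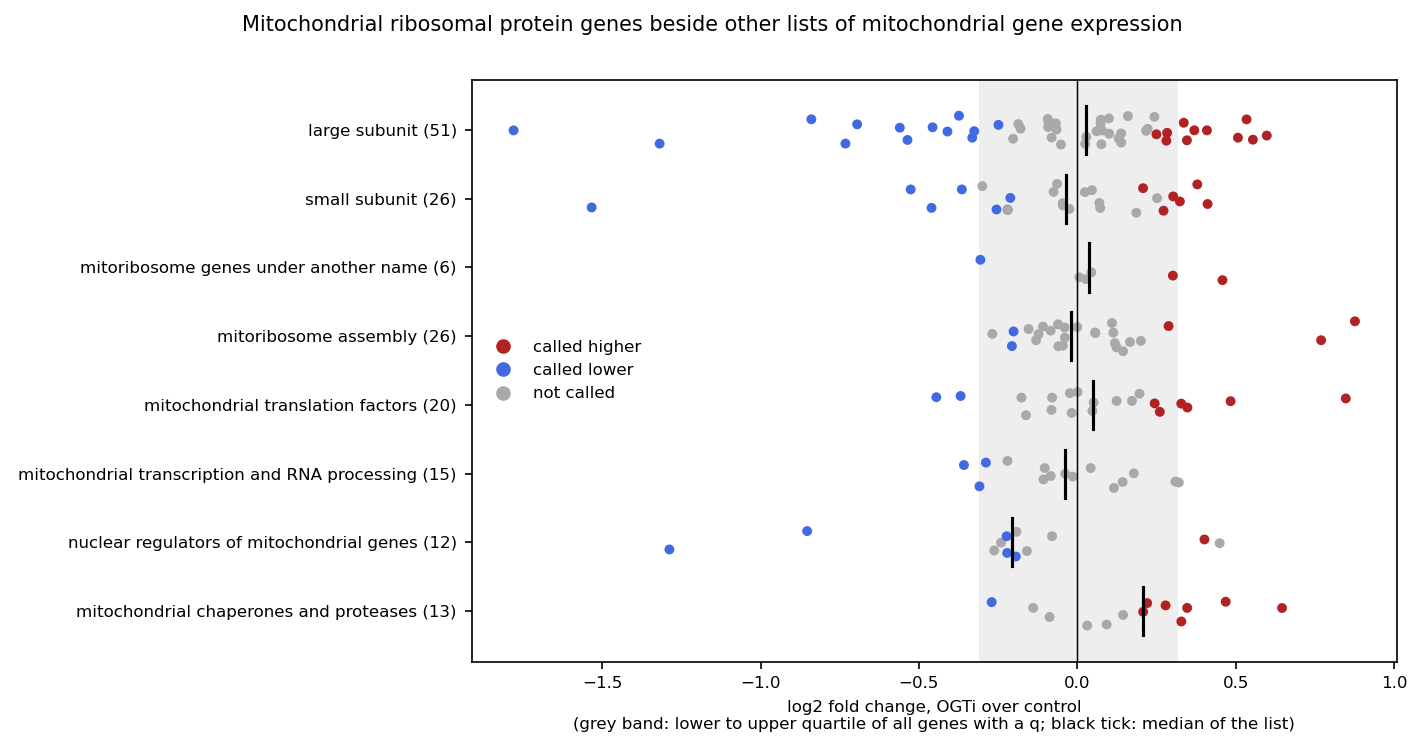
Log2 fold changes of the genes of both ribosomal subunits and of 6 lists of mitochondrial gene expression, with the number of genes in parentheses; points are genes coloured by call, black ticks are list medians and the grey band spans the lower to the upper quartile of all genes with a q-value. The medians of the 2 subunits (0.028 and -0.035) lie near 0, that of the nuclear regulators at -0.21 and that of the chaperones and proteases at 0.21. The medians of the lists were not tested.

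Several members start next to another gene on the opposite strand, an arrangement in which both genes can share a promoter. With a limit of 1000 bases between the start sites, 27 members had such a neighbour among the genes tested, which gave 27 entries because MRPS11 and MRPL46 are each other's neighbour. Of the neighbours, 12 were called higher and 3 lower (55.6%, against 46.6% of all genes with a q-value). Over all genes 22.7% were called higher and 24.0% lower. In 7 entries both genes were called, in the same direction in 2 and in opposite directions in 5. This split rests on few entries and was not tested.

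MRPL27 and EME1, a subunit of a DNA repair nuclease, start 45 bases apart, the shortest distance found. While MRPL27 fell by 1.32 on the log2 scale, EME1 rose by 0.44 ± 0.11 (q = 0.000276, DESeq2), from a mean of 530 to 719 normalized counts. MRPL54 and APBA3, an adaptor protein gene 990 bases away, also went opposite ways, with APBA3 at 0.50 ± 0.13 (q = 0.000300, DESeq2). MRPL57 rose while SKA3, a kinetochore gene that starts 106 bases from it, fell by 0.47 on the log2 scale (SE 0.08, q = 1.13e-08, DESeq2). The widest split on the higher side was that of MRPS12 and SARS2, the mitochondrial seryl-tRNA synthetase, which start 181 bases apart. SARS2 went from a mean of 517 to 189 normalized counts (-1.46 ± 0.15, q = 5.61e-21, DESeq2) while MRPS12 rose by 0.27, and SARS2 was chosen after its values were seen.

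MRPL10 and LRRC46 (0.92 ± 0.25, q = 0.00101, DESeq2) and MRPL21 and IGHMBP2 (0.23 ± 0.08, q = 0.0117, DESeq2) were the pairs that rose together. The call of IGHMBP2 was lost without replicate 2 (q = 0.109) and without replicate 4 (q = 0.0978). PSMA2, a proteasome subunit gene that starts 202 bases from MRPL32, had a log2 fold change of 0.04 ± 0.09 (q = 0.748, DESeq2) beside the rise of MRPL32.

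**Figure D5:**
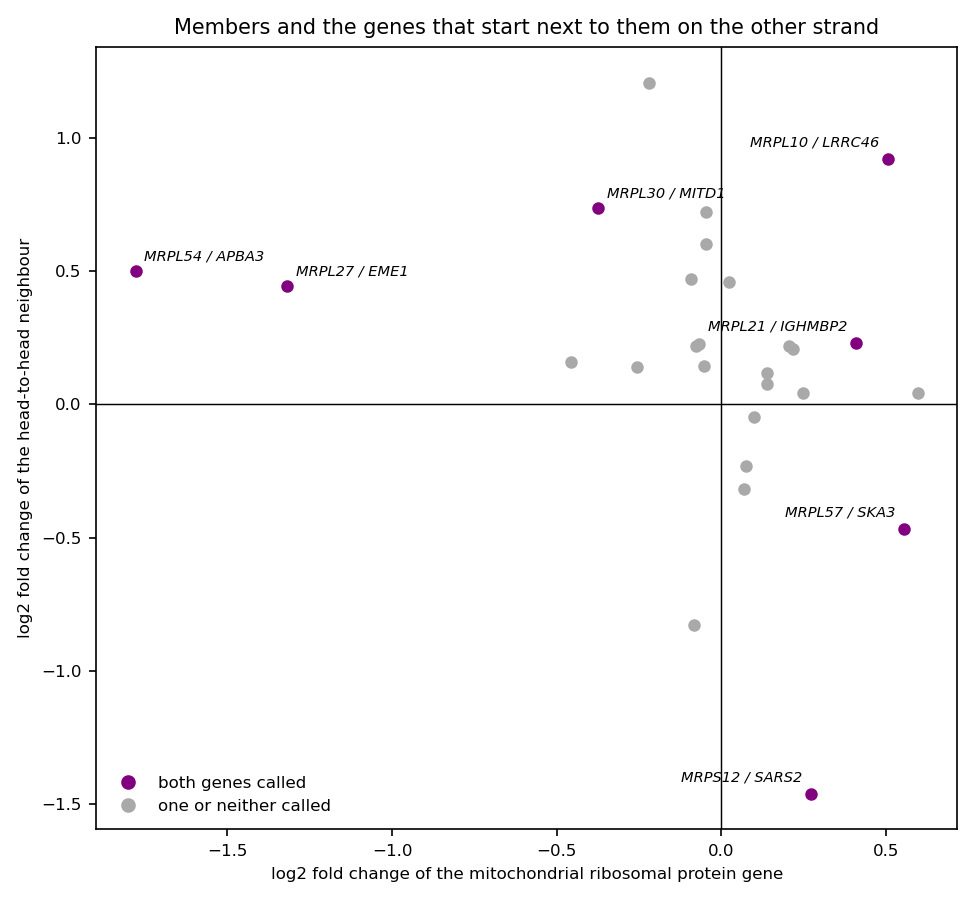
Log2 fold change of each of 27 members (x axis) against that of the gene that starts within 1000 bases on the other strand (y axis); purple points are entries with both genes called, which are named, and grey points the others. Of the 7 purple points 5 lie in the upper left or lower right quadrant, where the 2 genes moved in opposite directions, a split that was not tested.

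The start regions of the members were searched for 4 short motifs on both strands, from 250 bases before to 50 after the start that RefSeq gives on GRCh38.p14 (hg38). The ETS-family core CCGGAAG was found in 29 of the 69 members with such a region (42.0%), against 17.8% of the 11683 matched genes that were tested and 10.7% of all 27305 regions. The YY1 core AAGATGG was found in 23 of 69 (33.3%), against 7.09% of the genes tested and 6.06% of all regions. Most members with this core carried it only after the start, inside the transcribed part, as MRPL42, MRPS24 and MRPL45 did. MRPL32 and MRPS12 were among those that carried it before the start. GCGCATGC, the NRF1 motif, was in 8.70% of the members, 5.14% of the genes tested and 3.27% of all regions, and the E-box CACGTG in 8.70%, 9.85% and 7.43%. Both of the first 2 motifs were thus more frequent among the members than in either background, and they occurred among members of every call. CCGGAAG was in 3 of 15 members called higher, 9 of 19 called lower and 17 of 35 not called, and AAGATGG in 5 of 15, 6 of 19 and 12 of 35. These shares were not tested, and a match is no evidence that a factor bound there.

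The 250 bases before the start are shown for the 3 largest falls and then the 3 largest rises among members that averaged 100 normalized counts or more, which leaves out MRPS28, so that they can be compared letter by letter. Capitals mark matches to the 4 motifs on either strand, and each sequence is written 5′ to 3′ on the strand of the gene.
MRPL54, chr19:3762432-3762681, plus strand: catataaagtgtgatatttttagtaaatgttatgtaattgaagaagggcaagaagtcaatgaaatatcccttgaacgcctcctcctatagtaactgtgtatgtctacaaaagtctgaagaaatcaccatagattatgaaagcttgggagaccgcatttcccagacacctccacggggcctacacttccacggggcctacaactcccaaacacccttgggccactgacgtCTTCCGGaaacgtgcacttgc
MRPL27, chr17:50373185-50373434, minus strand: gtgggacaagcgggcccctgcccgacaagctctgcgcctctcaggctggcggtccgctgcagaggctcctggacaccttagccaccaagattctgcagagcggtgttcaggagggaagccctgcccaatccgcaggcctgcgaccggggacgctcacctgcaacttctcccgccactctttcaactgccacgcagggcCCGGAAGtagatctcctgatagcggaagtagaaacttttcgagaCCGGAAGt
MRPL48, chr11:73787624-73787873, plus strand: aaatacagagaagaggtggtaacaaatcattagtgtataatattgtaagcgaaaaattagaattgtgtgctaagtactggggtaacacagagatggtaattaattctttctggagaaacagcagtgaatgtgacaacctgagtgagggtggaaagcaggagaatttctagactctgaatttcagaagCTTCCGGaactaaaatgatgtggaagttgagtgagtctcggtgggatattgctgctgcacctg
MRPL32, chr7:42932126-42932375, plus strand: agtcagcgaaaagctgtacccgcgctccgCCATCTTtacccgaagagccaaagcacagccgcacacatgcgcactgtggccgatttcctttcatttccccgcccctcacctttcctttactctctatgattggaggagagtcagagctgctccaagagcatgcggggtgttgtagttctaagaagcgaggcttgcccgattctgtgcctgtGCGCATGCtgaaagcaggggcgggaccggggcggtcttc
MRPL57, chr13:21176408-21176657, plus strand: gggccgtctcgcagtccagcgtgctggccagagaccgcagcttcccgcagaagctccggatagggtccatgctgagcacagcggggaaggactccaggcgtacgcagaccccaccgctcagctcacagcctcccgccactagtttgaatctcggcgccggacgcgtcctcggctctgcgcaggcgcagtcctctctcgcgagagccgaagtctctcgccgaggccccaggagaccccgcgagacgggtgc
MRPL17, chr11:6683341-6683590, minus strand: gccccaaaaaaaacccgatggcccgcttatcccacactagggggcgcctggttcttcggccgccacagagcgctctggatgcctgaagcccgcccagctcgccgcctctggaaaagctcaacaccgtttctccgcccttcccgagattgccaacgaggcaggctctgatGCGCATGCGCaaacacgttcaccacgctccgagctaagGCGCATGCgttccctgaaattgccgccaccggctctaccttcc
Each of the 3 genes shown that fell carries the ETS core, in its reverse form in MRPL54 and MRPL48 and in 2 forward copies in MRPL27. None of the 3 genes shown that rose carries it. MRPL32 and MRPL17 carry the NRF1 motif, in MRPL17 with 2 of its 3 matches overlapping, MRPL32 also carries the YY1 core in reverse, and MRPL57 carries none of the motifs in this window. The 6 genes were chosen by their change in expression, so this contrast between them describes these sequences and supports nothing about the others.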

How the data were processed

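RNA was enriched for polyadenylated transcripts and sequenced from both ends with a strand-specific protocol. The authors trimmed the reads where needed, mapped them to hg38 with Bowtie2 2.3.5.1 and counted them per gene with RSEM 1.3.1. The deposited tables, 1 per library, hold the authors' expected counts, which are estimated counts not scaled for depth, and in which RSEM divides reads that align to several genes. Between 12.9% and 16.3% of the values of a library were fractional. The authors also deposited a DESeq2 1.36.0 comparison with fold changes, standard errors and p-values, which was not used.

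The values were rounded to integers, and a gene needed a total of 10 to stay. DESeq2 1.42.0 in R 4.3.3 was run on all 14895 remaining genes with median-of-ratios size factors and the replicate number as a block, as in the study's methods, with independent filtering and unshrunken fold changes. Calls were made at a q-value of 0.05 or lower. The pairing was checked with the correlation, across 11702 genes, of deviations from the group means. It was 0.379, 0.303, 0.138 and 0.269 for libraries of replicates 1 to 4, while control replicate 3 was closer to OGTi replicate 4 (0.272). Genes are not independent replicates, and all libraries came from 1 cell line, so p-values measure the spread between its cultures.

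Alternatives were edgeR 4.0.16, fits without the block, other size factors, other count filters, removal of the trend on GC content and leaving out each replicate. The fits were tested on simulated data, in which the share of false calls exceeded the q-value threshold when few genes changed and stayed below it when a large part of the genes did. Unlike the real libraries, the simulated ones had no differences between replicate numbers, and only genes with a mean above 100 normalized counts were changed. The simulation therefore does not give the share of false calls in these data. The members, gene lists and tests were chosen with earlier results of these data known. Genes were named by rule: the 6 largest rises and falls among called members with at least 100 normalized counts and 1 direction in all 4 pairs; 14 members by name; the 3 highest and 3 lowest members per kilobase; the 3 called genes of each list with the largest Wald statistic; and head-to-head neighbours of the first group. Other genes are said to have been chosen after their values were seen, apart from called members given in counts of a region. Positions and lengths came from GENCODE 44 by symbol, with 16247 of 16796 symbols and all 78 members matched, and start regions from RefSeq, with 69 of 78 matched. Protein sequences were not used here. Figures were drawn with matplotlib 3.10.9.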

Additional observations from a re-analysis of the deposited data

Results flagged for a closer look

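In 6 of the 116 groups of 4 libraries examined for the named genes, 1 library lay far from the other 3; its gap to the nearest of them took more of the group's range than Dixon's limit allows. Chance gives about 1 in 20 such groups, or 5.8 here. The OGTi value of MRPL57 was 1730.68 normalized counts for replicate 2, whereas the 3 remaining libraries held 1556 to 1583. The control value of MRPS33 was 314.669 for replicate 1 and 222 to 233 for the others. Likewise in control cells, MRPL54 was at 515.735 for replicate 2 (others 425 to 439) and MRPL27 at 450.083 for replicate 1 (others 382 to 387). MRPS12 and HTRA2 both had 981.483 normalized counts in OGTi replicate 1, the same whole-number count of reads in that library, while the others held 919 to 929 and 770 to 804. For MRPL54 and MRPL27 the outlying control library lay on the far side from the OGTi libraries, and for MRPS33 on the near side. Of these 6 genes, MRPL54, MRPL27, MRPL57 and HTRA2 were called in every alternative run.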

How the results depend on the processing

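The 37 called members were 30, 23, 31 and 26 when replicates 1 to 4 were left out in turn, from 23 to 31, and 29 without control replicate 3 alone, an alternative chosen after seeing the data because that library had the lowest summed level. Without the replicate block DESeq2 called 34 members, edgeR called 39 with the replicate block and 32 without it, and the other settings gave 36 to 38. The 13 calls in the small subunit ranged from 3 to 9 when a replicate was left out, and the 24 in the large subunit from 20 to 22. For the lists, the same range was 2 to 4 for assembly (5 with all libraries), 4 to 6 for translation factors (8), 1 to 2 for transcription and RNA processing (3), 3 to 5 for nuclear regulators (6; also 3 with total counts as size factors) and 4 to 7 for chaperones and proteases (8). Fits with a replicate left out have 3 pairs, and all genes also had fewer calls there. The median log2 fold change of the members (0.024) was 0.11 with total counts as size factors, a scaling that moved the median of all genes to 0.095, and -0.010 to 0.016 with a replicate left out (-0.0097 without control replicate 3).

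Among the named genes, sign changes occurred only in members that were not called. With total counts as size factors MRPS18C was at 0.044, MRPS22 at 0.065 and MRPL50 at 0.039 on the log2 scale, and after removal of the GC trend they were at 0.021, 0.010 and 0.025. With a replicate left out, MRPS16 ranged from -0.021 to 0.11, MRPS18C from -0.16 to 0.0012, MRPL23 from -0.37 to 0.65, MRPL50 from -0.12 to 0.038 and MRPL37 from -0.0034 to 0.049. Over the named genes, 24 values under an alternative lost the threshold, 11 passed it newly, 12 changed sign and 625 did neither. Depth limits MRPL23 most, at under 32 normalized counts in each library.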
